A study of Rattus norvegicus with 9 samples.

Results

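Femurs labelled as treated with the GMTT hydrogel after a growth plate injury were compared with femurs of sham-operated rats, over every protein-coding gene that was counted well enough to compare. A gene row entered when its biotype was protein coding and at least 3 of the 6 libraries held 10 or more of its reads. By this rule 14190 of the 23098 protein-coding rows entered, out of 31125 gene rows in all. The third highest of the 6 counts was exactly 10 for 122 genes that entered and 9 for 133 genes left out. Of the 14190 genes, 14167 also passed the filter on low counts of the statistical test, and 23 did not. Counts of 10 or more in all 6 libraries were reached by 13290 genes, in all 3 GMTT but no Sham library by 212, and in all 3 Sham but no GMTT library by 51.

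RNA came from femurs of male rats at day 7, with 3 libraries per group. Sham rats had sham surgery only, and GMTT rats, by the series' design text, had an injury of the distal femoral growth plate followed by the hydrogel. The treatment label of the GMTT samples also places them after an injury, but calls the growth plate intact. Which of these describes the growth plate in the tissue taken is not settled by the labels, and GMTT is called injured here on the design text alone. Another group, GPI, had the injury without the gel. GMTT levels are placed beside it, and its libraries also entered the filter, the scaling and the estimate of spread of the test. The series title gives the gel as GelMA (methacrylated gelatin), TPGS (a water-soluble vitamin E derivative) and tea polyphenols, and names pyroptosis of chondrocytes through NLRP3 and caspase-1 as the subject. The labels name no strain and no age. Nor do they state pooling or separate animals for the libraries, so each p here reflects the spread between libraries, which may be technical. In GMTT against Sham the injury and the gel cannot be told apart. Neither can they be told apart from any other difference between the animals of the groups.

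The growth plate is the cartilage layer in which chondrocytes divide, enlarge and lay down the matrix that bone replaces as a limb lengthens. When it is injured, inflammation is followed by fibrous tissue and then often by bone at the defect. A femur also encloses marrow, which makes red cells, granulocytes, platelets and B cells, and carries tendon, synovium, fat and muscle at its surface, so RNA of a whole femur is a mixture of all of these. In such bulk RNA, fewer cells of a type and less RNA per cell cannot be told apart.

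The 6 libraries held 15927429 to 18061731 counts each. Across genes, on log2(CPM + 1), where CPM is counts per 1000000 counts of the TMM-scaled library, Pearson's r was 0.996 to 0.998 among GMTT libraries, 0.997 among Sham libraries and 0.965 to 0.966 between them. Genes are not independent replicates, and this r is a description. What edgeR terms the biological coefficient of variation had a median of 5.09% in the model of all 9 libraries. This spread between libraries may be technical.

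The labelled tissue was checked against marker genes. Genes of bone, osteoclasts and every marrow lineage listed were counted in all 6 libraries. Of 20 cartilage matrix genes 15 entered. Matn1, Cnmd, Epyc and Snorc, all made mainly by chondrocytes, had at most 6 counts in any of the 6 libraries. Col9a1 had 9 to 10 counts in Sham libraries and 0 to 3 in GMTT libraries. These chondrocyte genes were thus near the counting limit in both groups.

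With edgeR (quasi-likelihood test, p adjusted by Benjamini-Hochberg over every gene tested), 9218 of 15936 genes of any biotype differed between GMTT and Sham at an adjusted p below 0.05, which is 57.8%. Among the 14167 protein-coding genes tested 8399 were called (59.3%), 4271 of them higher in GMTT (30.1%) and 4128 lower (29.1%). At least a 2-fold difference was reached by 1174 of the higher genes (8.29% of those tested) and by 283 of the lower genes (2%). Most differences were small: the median log2 fold change of all protein-coding genes tested was -0.0041, with quartiles of -0.25 and 0.32. Larger differences were mostly upward, with 180 genes called at least 8-fold higher and 22 at least 8-fold lower. These percentages are the background for every list below. Where a number stands alone in brackets or after "by", it is the log2 fold change of GMTT minus Sham. Scaling by median of ratios moved the median of all genes by 0.036 on this scale, and library sizes alone by 0.0097.

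**Figure D1:**
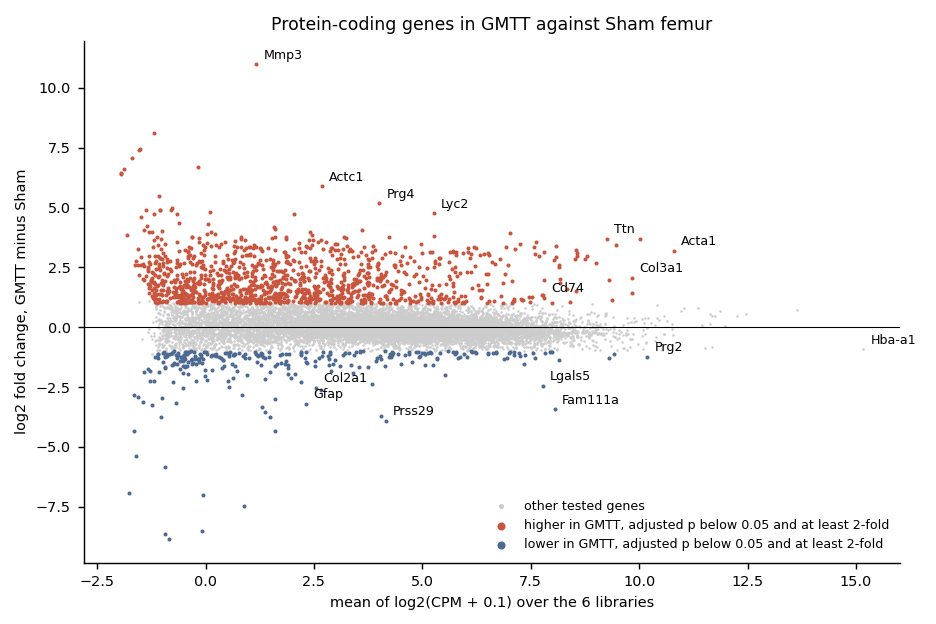
Each point is a protein-coding gene tested. The x axis is the mean of log2(CPM + 0.1) over 6 libraries and the y axis the log2 fold change of GMTT minus Sham; coloured points had an adjusted p below 0.05 and at least a 2-fold difference (1174 higher, 283 lower). Mmp3 stands at 10.98. The named genes Actc1, Ttn, Acta1, Prg4, Col3a1, Lyc2 and Cd74 also lie on the higher side. Hba-a1, Prg2, Prss29, Lgals5, Fam111a, Gfap and Col2a1 lie on the lower side.

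The share of each library's counts held by genes of single tissues differed between the groups. Skeletal muscle contractile genes took 0.362% to 0.380% of the counts in Sham libraries and 3.29% to 3.48% in GMTT libraries. Erythroid genes took 8.85% to 9.81% in Sham and 4.81% to 5.19% in GMTT. No Sham library overlapped a GMTT library in either share. Tendon and synovium genes took 0.0107% to 0.0113% and 0.0475% to 0.0504%, and adipocyte genes 0.0465% to 0.0495% and 0.101% to 0.104%. In the GPI libraries muscle genes took 17.1% and erythroid genes 0.225% of the counts (means of 3). How far the makeup of the tissue taken accounts for any gene difference below was not tested.

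**Figure D2:**
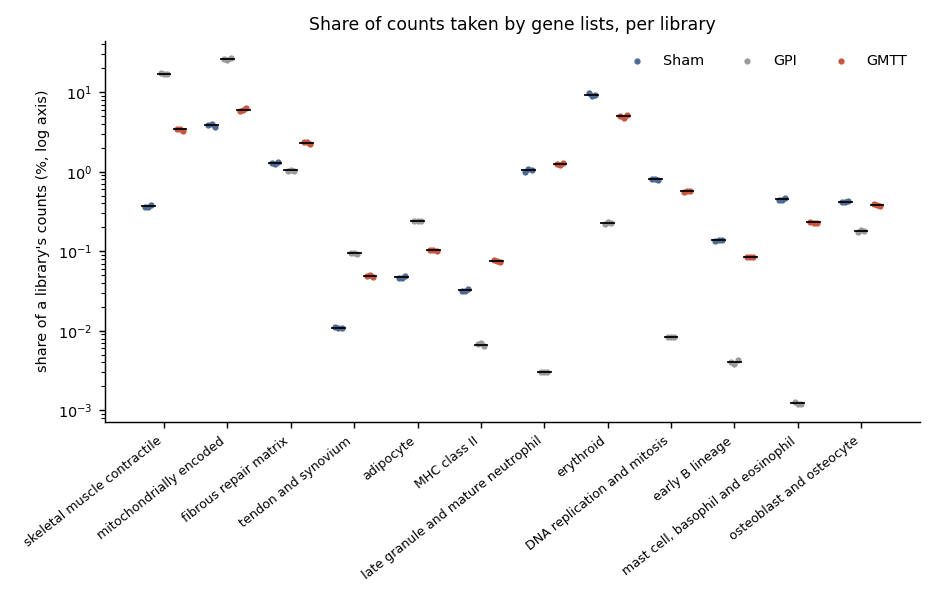
Share of a library's counts (%, log axis) taken by 12 gene lists. Points are single libraries of Sham, GPI and GMTT and bars are means of 3; for muscle contractile, mitochondrially encoded, adipocyte and erythroid genes the GMTT points lie between the Sham and GPI points.

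The largest difference in the set was in Mmp3, which encodes stromelysin-1, a secreted protease that cleaves proteoglycans and activates collagenases. Mmp3 lies on chromosome 8 (4640416 to 4653961, mRatBN7.2), between Mmp12 and Mmp8. Its counts were 0, 0 and 1 in the Sham libraries and 1089, 936 and 1036 in the GMTT libraries. Sham and GMTT were separated by about 3 orders of magnitude, and the GPI libraries, with 5, 4 and 2 counts, stood with Sham. The ratio of GMTT to Sham was 2897 with a 95% counting interval of 520 to 114453, so the size of the ratio is poorly fixed although its direction is not (edgeR adjusted p = 2.3e-28).

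Most matrix-degrading enzymes and their inhibitors were higher than in Sham, but not all shared the group order of Mmp3. Of 23 such genes tested, with Mmp3 among them, 19 were higher and 1 lower, with a median log2 fold change of 0.75. By TMM scaling, all GMTT libraries stood above all 6 others for 10 of the 23, against 10.0% of all genes. The GMTT mean lay between the Sham and GPI means for 11, against 65.2% of all genes. Mmp12, the macrophage elastase, was at 0.0979, 0.390 and 0.0920 CPM in Sham and 1.84, 2.20 and 2.33 CPM in GMTT (log2 fold change 3.37, SE 0.35, edgeR adjusted p = 1.2e-09). Mmp12 was thus low everywhere, and the groups did not overlap, as for 63.1% of all protein-coding genes tested. Mmp2 and Mmp14, a gelatinase and the membrane protease that activates it, were higher by 1.31 and 1.02 on the log2 scale. Adamts1, Adamts4 and Adamts5, which cleave aggrecan, were higher by 1.85, 1.41 and 0.94. Of the inhibitors, Timp2 was higher by 0.69 and Timp1 by 0.41. Adamts13, which cleaves von Willebrand factor, was the member called lower, at 12.6, 13.5 and 15.3 CPM in Sham and 4.65, 3.60 and 3.51 CPM in GMTT. Mmp13, the collagenase of hypertrophic cartilage and bone cells, was at 309 to 335 CPM in Sham and 289 to 332 CPM in GMTT, and did not pass the test (edgeR adjusted p = 0.36).

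The promoter of Mmp3 is shown because no other gene of the set differed by as much. It is the RefSeq sequence of GRCr8, 250 bases before to 50 after the start, on chromosome 8 (12925031 to 12925330, plus strand), in lower case, with the match to the AP-1 motif TGANTCA in capitals.
Mmp3: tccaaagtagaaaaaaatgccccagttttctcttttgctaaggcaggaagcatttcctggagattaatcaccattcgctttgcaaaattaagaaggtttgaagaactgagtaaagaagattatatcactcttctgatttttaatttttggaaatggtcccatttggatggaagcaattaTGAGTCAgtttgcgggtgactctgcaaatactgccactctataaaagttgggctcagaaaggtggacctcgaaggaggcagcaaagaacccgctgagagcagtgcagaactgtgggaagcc
On both strands TGANTCA was found in 7.33% of the 33469 promoters of the table. Of the 17 protease and inhibitor genes with a promoter there, 4 held it, namely Mmp3, Mmp12, Mmp13 and Plaur. Mmp13, which did not pass the test, held the motif like Mmp3, so the match is a description of these letters only.

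Prg4, which encodes the joint lubricant lubricin made by synovium and superficial cartilage, was at 2.45, 2.73 and 2.62 CPM in Sham and 87.3, 103 and 95.9 CPM in GMTT (log2 fold change 5.19, SE 0.09, edgeR adjusted p = 1.1e-29). The GMTT libraries also stood above the GPI libraries, which held 41.0 to 48.2 CPM of Prg4. Of 13 tendon and synovium genes tested 12 were higher, all 12 by at least 2-fold, with a median of 1.72 against -0.0041 for all genes. Cilp, an intermediate-layer cartilage and tendon matrix protein, was higher by 2.78, Tnmd (tenomodulin) by 2.10, Has1 (a hyaluronan synthase) by 2.54 and Scx, the tendon transcription factor, by 1.60. Cilp, Tnmd and Scx were higher still in GPI, and Has1 was not.

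Genes of fibrous repair matrix were higher without exception: 27 of 27 tested, 17 of them at least 2-fold, with a median of 1.06. Col3a1, the collagen of early repair tissue, was at 456, 442 and 450 CPM in Sham and 1886, 1898 and 1861 CPM in GMTT (log2 fold change 2.07, SE 0.04, edgeR adjusted p = 4.6e-28). Postn (periostin) was at 146 to 156 CPM in Sham and 532 to 582 CPM in GMTT. Col1a1, the main collagen of bone and scar, had one of the 6 largest rises in CPM of the set, from 4638 to 6870 CPM, yet its log2 fold change was only 0.57. The fold changes of Col3a1 and Col1a1 thus differed by far more than their standard errors of 0.04 each. Fn1 (fibronectin), Acta2 (smooth muscle actin of myofibroblasts) and Lox, which cross-links collagen, were higher by 1.42, 1.59 and 1.58. Col14a1, Col12a1 and Col6a3, collagens of fibrous tissue, were higher by 1.77, 1.36 and 1.33. Vcan (versican), a proteoglycan of provisional matrix, was at 38.5 to 43.8 CPM in Sham, 141 to 146 CPM in GMTT and 56.7 to 62.3 CPM in GPI, so its GMTT libraries stood above all 6 others.

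Adipocyte genes followed the same direction, with 14 of 16 higher, 9 of them at least 2-fold, and a median of 1.28. Plin1 and Plin4, which coat lipid droplets, were higher by 2.78 and 2.98. Scd, which desaturates fatty acids, was at 10.0 to 11.4 CPM in Sham and 70.6 to 76.1 CPM in GMTT. Adipoq, the fat hormone adiponectin, was at 5.79 to 6.02 CPM in Sham and higher by 2.16 in GMTT. Pparg, the master regulator of fat cells, did not pass the test (0.19), although it did without GMTT replicate 1 (0.28, edgeR adjusted p = 0.026). Of 18 endothelial genes 13 were higher and 1 lower, with a median of 0.32, and the differences were at most 0.79 (Sox17).

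Contractile muscle genes had the largest median difference of the 39 lists. All 24 contractile genes tested were higher and all 24 by at least 2-fold, with log2 fold changes from 2.24 to 3.71 and a median of 3.02. Ttn (titin, the elastic filament) was at 171, 174 and 164 CPM in Sham and 2206, 2278 and 2164 CPM in GMTT (log2 fold change 3.71, SE 0.06, edgeR adjusted p = 3.8e-25). Myh4, the fast myosin heavy chain, was at 280 to 290 and 3664 to 3734 CPM, Acta1 (skeletal actin) at 553 to 628 and 5045 to 5649 CPM, and Atp2a1, the calcium pump of fast fibres, at 207 to 223 and 2220 to 2409 CPM. Fast-fibre and slow-fibre genes were both higher, with 3.69 for Myh4 and 3.09 for the slow myosin Myh7. All 24 genes had a higher mean again in GPI, with Pvalb as the exception when only library sizes were used for scaling.

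Genes of developing and stressed muscle did not all keep to the 2.24 to 3.71 of the contractile block. Actc1, the cardiac actin that growing and repairing muscle fibres use, was at 0.832, 0.736 and 0.782 CPM in Sham and 47.3, 48.3 and 45.3 CPM in GMTT (log2 fold change 5.90, SE 0.11, edgeR adjusted p = 4.8e-29). Its GPI libraries were at 86.1 to 97.0 CPM, and those of Ttn at 37228 to 45897 CPM. The myogenic factors Myf6, Myod1 and Myog were higher by 3.78, 3.31 and 2.28, and the embryonic and perinatal myosins Myh3 and Myh8 by 2.25 and 3.67. Xirp1 and Ip6k3 were higher by 4.06 and 4.09. Trim63 and Fbxo32, ubiquitin ligases of muscle wasting, were higher by 3.25 and 0.90. Ankrd1 did not pass the test (0.22), although it was at 143 to 144 CPM in GPI and about 3 CPM in the other 6 libraries. Cdh15 and Chrng, a satellite cell cadherin and the fetal acetylcholine receptor subunit, were lower by small amounts (-0.50 and -0.19).

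Transcripts of energy metabolism were higher along with those of muscle. All 13 mitochondrially encoded genes tested were higher, with a median of 0.67, and Mt-co1 had the largest rise in CPM of the set, from 9980 to 16328 CPM. All 21 nuclear genes of oxidative phosphorylation were higher, none by 2-fold, with a median of 0.46. Of 23 glycolysis and hypoxia genes 19 were higher and 1 lower. The muscle isoforms Eno3 and Pgam2 were higher by 3.16 and 3.09, against 0.42 for Eno1 and 0.31 for Pgam1, the isoforms of other tissues. Hk1, the hexokinase of red cells and many other cells, was lower by -0.36. Vegfa, the vessel growth factor, was higher by 1.11.

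**Figure D3:**
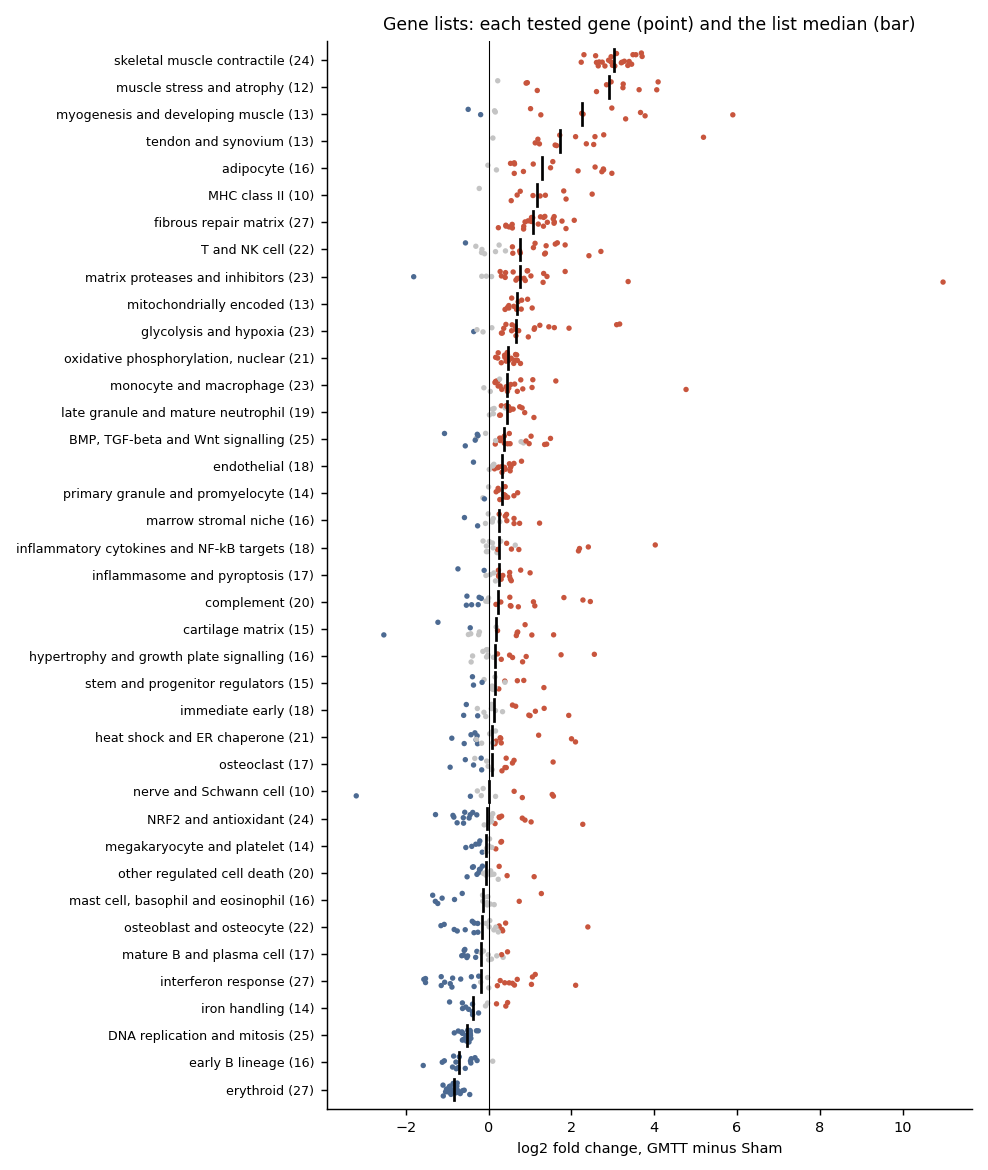
Log2 fold changes of GMTT minus Sham (x axis) for the tested genes of 39 lists, with the number tested in brackets. Red and blue points were called higher and lower, grey points were not called, and bars are medians; muscle lists stand at the top, erythroid, early B lineage and replication lists at the bottom.

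Cartilage genes did not move as a group. Of 15 tested 7 were higher and 3 lower, with a median of 0.18. Col2a1, the main collagen of cartilage, was at 14.6, 12.8 and 14.3 CPM in Sham and 2.56, 2.59 and 2.02 CPM in GMTT (log2 fold change -2.53, SE 0.12, edgeR adjusted p = 6.1e-18). Its GPI libraries were at 3.47 to 3.89 CPM, so GMTT and GPI were both low. Col9a3, a partner collagen of the same fibrils, was at 0.433 to 0.644 and 0.176 to 0.308 CPM (-1.23, edgeR adjusted p = 0.012), a call that was lost without Sham replicate 3 or GMTT replicate 3 (edgeR adjusted p = 0.053 and 0.057) and with DESeq2 (adjusted p = 0.059). Acan (aggrecan) went the other way, at 14.2 to 16.6 CPM in Sham and 23.5 to 26.6 CPM in GMTT (log2 fold change 0.69, SE 0.08, edgeR adjusted p = 5.0e-09). Comp, also a tendon matrix protein, was higher by 1.57 and Matn4 by 1.04. Sox9, the chondrocyte master factor, was at 0.736 to 1.47 and 0.702 to 0.982 CPM and did not pass the test (edgeR adjusted p = 0.13), although it did without Sham replicate 3 (-0.73, edgeR adjusted p = 0.025). Col10a1, the collagen of hypertrophic chondrocytes, was at 1.47 to 2.35 and 1.32 to 1.37 CPM and did not pass either (edgeR adjusted p = 0.12), while GPI libraries held 13.5 to 15.2 CPM of it.

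Among 16 genes of hypertrophy and growth plate signalling 8 were higher and none lower. Ghr, the growth hormone receptor, was higher by 1.75 and Fgf18, which restrains chondrocyte division, by 2.55 from a Sham mean of 0.213 CPM. Both reached higher levels in GPI than in GMTT. The log2 ratio of the lowest GMTT to the highest other library, on CPM + 0.1, was -3.18 and -2.21. Ihh and Pthlh, the ligands of the growth plate feedback loop, had at most 6 counts in any of the 6 libraries and did not enter. Ptch1 and Gli1, targets of the Ihh signal, had log2 fold changes of -0.14 and -0.42 and did not pass the test. Of 25 BMP, TGF-beta and Wnt genes 15 were higher and 5 lower. Wnt16 and Inhba, a Wnt ligand and the activin A subunit, were higher by 1.49 and 1.40, and Tgfb1 by 0.38. Lef1, a transcription factor of the Wnt pathway, was lower by -0.57.

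Genes of mature bone were lower more often than higher: of 22 osteoblast and osteocyte genes 10 were lower and 5 higher, with a median of -0.16. Dmp1, an osteocyte regulator of mineral and phosphate, was at 209, 205 and 205 CPM in Sham and 90.2, 94.7 and 93.1 CPM in GMTT (log2 fold change -1.15, SE 0.05, edgeR adjusted p = 3.0e-19). Mepe, its osteocyte companion, was at 137 to 146 and 67.0 to 68.5 CPM. Spp1 (osteopontin) and Bglap (osteocalcin) were lower by -0.83 and -0.76. Against these stood Fgf23, the osteocyte hormone that makes the kidney shed phosphate, at 1.81, 0.996 and 1.79 CPM in Sham and 7.21, 8.39 and 8.47 CPM in GMTT (log2 fold change 2.40, SE 0.17, edgeR adjusted p = 1.6e-13). The GPI libraries had at most 0.169 CPM of Fgf23, so its GMTT level was above both other groups. As Sham also stood above GPI, this restates the difference from Sham. Osteoblast and osteocyte genes took 0.181% of the counts in GPI and 0.420% in Sham (means of 3).

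Osteoclast genes were mixed, with 7 of 17 higher and 5 lower. Acp5 and Ctsk, the acid phosphatase and collagen-digesting cathepsin of resorbing cells, were lower by -0.37 and -0.18, and Dcstamp, needed for their fusion, by -0.57. Car2, carbonic anhydrase of osteoclasts and also of red cells, was at 1957 to 2082 CPM in Sham and 1035 to 1100 CPM in GMTT. Oscar, an activating receptor for collagen on osteoclast precursors, was at 4.84 to 5.20 and 13.4 to 15.8 CPM, with at most 0.578 CPM in GPI. Nfatc1, the master factor of the lineage, was higher by 0.57.

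Red cell genes were lower in GMTT without exception, 27 of 27 tested, with log2 fold changes from -1.10 to -0.46 and a median of -0.84. Hba-a1 (alpha globin) had the largest fall in CPM of the set, from 54998, 47473 and 49663 CPM in Sham to 26903, 25172 and 28456 CPM in GMTT (log2 fold change -0.92, SE 0.05, edgeR adjusted p = 1.5e-15). Epor and Ahsp, the erythropoietin receptor and the alpha globin chaperone, were lowest, both at -1.10, and Slc4a1, the anion exchanger, went from 3948 to 2177 CPM. The narrow range means that early regulators such as Gata1 (-0.74) and late products such as Alas2 (-0.91) were lower by similar factors. Iron genes were lower with them, 9 of 14, with 3 higher and a median of -0.39. Tfr2 and Tfrc, receptors for transferrin, were lower by -0.95 and -0.39 and the ferritin heavy chain Fth1 by -0.64, while transferrin itself (Tf) was higher by 0.46.

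Genes of DNA replication and mitosis were also lower, 25 of 25 tested, none by 2-fold, with a median of -0.53. Mki67 was at 1534 to 1658 CPM in Sham and 1016 to 1158 CPM in GMTT. Ccne1 and Ccne2, the cyclins of entry into S phase, were lowest (-0.74 and -0.83). The GPI libraries, which held the fewest erythroid counts, had 9.16 to 11.3 CPM of Mki67, so replication genes and erythroid genes had the same order of groups.

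Genes of B cell precursors were also mostly lower, 15 of 16 tested, with none called higher and a median of -0.73. Rag1, which cuts antigen receptor genes, was at 138, 139 and 126 CPM in Sham and 60.0, 59.0 and 66.3 CPM in GMTT (log2 fold change -1.12, SE 0.06, edgeR adjusted p = 6.3e-17). Vpreb1, part of the surrogate light chain, was at 11.6 to 13.0 and 3.80 to 4.74 CPM. Pax5, which stays on through B cell life, was lower by less, at -0.44. Of 17 mature B and plasma cell genes 8 were lower and 2 higher. Xbp1, a factor of antibody-secreting cells, was one of the higher genes (0.31).

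Granulocyte genes split by lineage. Of 14 primary granule genes 11 were higher and 1 lower with a median of 0.32, and of 19 late neutrophil genes 14 were higher and none lower with a median of 0.44. Prtn3, a neutrophil serine protease, was higher by 0.70, and Hp (haptoglobin), at 91.9 to 97.6 CPM in Sham and 193 to 209 CPM in GMTT, by 1.09. Camp, the antimicrobial cathelicidin, did not pass the test (0.02). In the list of mast cell, basophil and eosinophil genes 6 of 16 were lower, 4 of them at least 2-fold, 2 were higher and 8 were not called, with a median of -0.13. The lower ones were the 5 eosinophil genes Prg2, Prg3, Epx, Ccr3 (-0.64) and Il5ra and the mast cell protease gene Cpa3 (-0.83). Prg2, the major basic protein of eosinophil granules, was at 1721, 1777 and 1856 CPM in Sham and 764, 759 and 758 CPM in GMTT (log2 fold change -1.23, SE 0.05, edgeR adjusted p = 5.0e-21). Prg3 and Epx (eosinophil peroxidase) were lower by -1.35 and -1.29, and Il5ra, the receptor for the eosinophil growth factor, by -1.13. Ear1, an eosinophil-associated ribonuclease of a family of close copies, was lower by -1.47.

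Prss29 and Prss34, which are not in that list, were the lowest of all named genes above a mean log2 CPM of 3. Both are trypsin-like proteases that lie 21.3 kb apart on chromosome 10 (14315955 to 14341038, mRatBN7.2). Prss34, a basophil protease, was at 56.4, 56.8 and 66.7 CPM in Sham and 3.97, 5.14 and 4.56 CPM in GMTT (log2 fold change -3.72, SE 0.09, edgeR adjusted p = 2.5e-24). Prss29 was at 66.3 to 72.7 and 4.13 to 4.95 CPM (-3.91). The 2 neighbours were lower by nearly the same factor, and reads of close copies may be split between them. Among mast cell and basophil genes of the list, Ms4a2 and Fcer1a, chains of the high-affinity IgE receptor, had log2 fold changes of 0.04 and -0.02 and did not pass the test. The 2 genes called higher were Mcpt10, a mast cell protease, at 109 to 117 CPM in Sham and 263 to 287 CPM in GMTT, and Hdc, which makes histamine, at 17.7 to 19.2 and 30.1 to 32.4 CPM.

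Monocyte and macrophage genes were higher in 20 of 23 cases and lower in none, with a median of 0.45. Lyc2, a lysozyme gene 12.4 kb from Lyz2 on chromosome 7 (52886883 to 52894446, mRatBN7.2), was at 7.09, 7.49 and 7.40 CPM in Sham and 205, 219 and 176 CPM in GMTT (log2 fold change 4.77, SE 0.08, edgeR adjusted p = 2.2e-30). Lyz2, the lysozyme of macrophages and neutrophils, was at 3864 to 4166 CPM in Sham and 4025 to 4161 CPM in GMTT and did not pass the test (0.04). The groups overlapped in Lyz2 and were far apart in Lyc2, and how reads matching both were counted is not given in the sources used here. Csf1r, the macrophage growth factor receptor, was higher by 0.48, Cx3cr1 and Cd14 by 1.07 and 1.05, and Ccr2, which recruits monocytes, by 0.82.

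Antigen presentation stood apart from these modest shifts. Of 10 MHC class II genes 9 were higher, 6 by at least 2-fold, with a median of 1.16. RT1-Da, an alpha chain, was at 27.1, 27.8 and 27.1 CPM in Sham and 99.5 to 100.2 CPM in GMTT (log2 fold change 1.87, SE 0.06, edgeR adjusted p = 1.0e-23). Its GPI libraries were at 18.8 to 20.9 CPM, so GMTT was above both other groups. Cd74, the invariant chain, was at 141 to 150 CPM in Sham, 329 to 357 CPM in GMTT and 42.5 to 47.9 CPM in GPI. Ciita, the transcription factor that switches these genes on, was at 6.24 to 6.99 and 13.0 to 14.5 CPM (1.07). RT1-Ba and RT1-Bb were higher by 2.50 and 1.81 and the peptide loaders RT1-DMa and RT1-DMb by 0.54 and 0.69. RT1-DOb, a brake on loading made in B cells, did not pass the test (-0.23). RT1 genes are close copies that differ between rat strains, so levels of single RT1 genes are uncertain.

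The promoter of RT1-Da is shown because, above a mean log2 CPM of 3, it stood clearest above both other groups after Lyc2. It is the RefSeq sequence of GRCr8 on chromosome 20 (4515165 to 4515464, plus strand), with the match to CCAAT, one of the boxes known from class II promoters, in capitals on the reverse strand.
RT1-Da: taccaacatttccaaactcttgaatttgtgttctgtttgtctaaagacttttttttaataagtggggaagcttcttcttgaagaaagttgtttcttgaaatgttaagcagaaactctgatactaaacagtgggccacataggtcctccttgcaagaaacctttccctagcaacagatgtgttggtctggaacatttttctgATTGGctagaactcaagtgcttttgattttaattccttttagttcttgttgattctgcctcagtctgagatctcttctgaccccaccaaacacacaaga
All 8 class II genes with a promoter in the table held CCAAT on either strand, against 37.5% of the 33469 promoters. RT1-DOb, the gene that did not pass the test, was among the 8.

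Genes of T and NK cells were low but mostly higher in GMTT, 14 of 22 higher, 1 lower, 10 at least 2-fold, with a median of 0.76. Cd8a was at 1.52, 1.65 and 1.70 CPM in Sham and 5.85, 5.67 and 6.06 CPM in GMTT (log2 fold change 1.85, SE 0.15, edgeR adjusted p = 7.1e-12). The killing genes Prf1 (perforin) and Gzma (granzyme A) were higher by 2.42 and 2.71 from Sham means of 0.370 and 0.110 CPM. Cd3g, a chain of the T cell receptor complex, was lower (-0.56) while its partner Cd3e was higher (1.08), so the chains of 1 complex did not move together. The call for Cd3g was lost with limma on log2(FPKM + 0.1) (limma adjusted p = 0.14).

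Complement genes were higher for some steps and lower for others, with 11 of 20 higher and 6 lower. Masp1, C4b and C1s, proteases and substrate of the lectin and classical pathways, were higher by 2.46, 2.28 and 1.82, and C3, the component that all pathways share, by 0.51. The C1q chain C1qa, made by macrophages, was lower by -0.25. C6, of the membrane attack complex, and Cd59, which blocks that complex, were lower by -0.54 and -0.53.

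Interferon response genes went both ways, as the plot of interferon and class II genes shows. Of 27 tested 11 were higher and 13 lower, 4 and 6 of them by at least 2-fold. Irf7, the factor that amplifies type I interferon, was at 34.7, 34.4 and 38.6 CPM in Sham and 16.7, 17.4 and 14.5 CPM in GMTT (log2 fold change -1.15, SE 0.08, edgeR adjusted p = 2.3e-14). GPI libraries held 53.5 to 61.8 CPM of Irf7, so GMTT was below both other groups. Rsad2 (viperin), an antiviral enzyme, was at 318 to 335 CPM in Sham and 153 to 162 CPM in GMTT. Dhx58, Oas2 and Mx2, a sensor regulator, an RNA-activated synthetase and an antiviral GTPase, were lower by -1.57, -1.53 and -1.53.

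The genes that were higher included the chemokines Cxcl9 and Cxcl10, which draw T cells, at 2.10 and 1.12. Cxcl9 had a Sham mean of 0.854 CPM. The highest GPI library stood above the lowest GMTT library for Cxcl9 and below it for Cxcl10. The log2 ratio of the lowest GMTT to the highest other library, taken as for Ghr, was -2.56 and 0.21. Gbp2, a GTPase that attacks vacuoles, was at 26.1, 25.5 and 25.8 CPM in Sham and 52.4, 53.7 and 54.9 CPM in GMTT, with 20.3 to 23.7 CPM in GPI. Ifit1, an interferon-induced RNA-binding protein gene outside the list, was at 15.3 to 18.1 CPM in Sham, 65.3 to 71.2 CPM in GMTT and 29.4 to 31.6 CPM in GPI. Oasl2 was at 11.9 to 14.4 CPM in Sham, 26.2 to 28.2 CPM in GMTT and 14.0 to 19.3 CPM in GPI. Irf1 was higher by 0.62. Some interferon response genes are known as targets of interferon gamma and others of type I interferon, but the list was not sorted by interferon type. Whether type and direction go together was not tested. Within the Oas family Oas1a was lower (-1.15), and Oas1k was higher, at 6.67 to 7.68 CPM in Sham and 22.6 to 26.7 CPM in GMTT. These are close copies, and their levels are uncertain one by one.

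**Figure D4:**
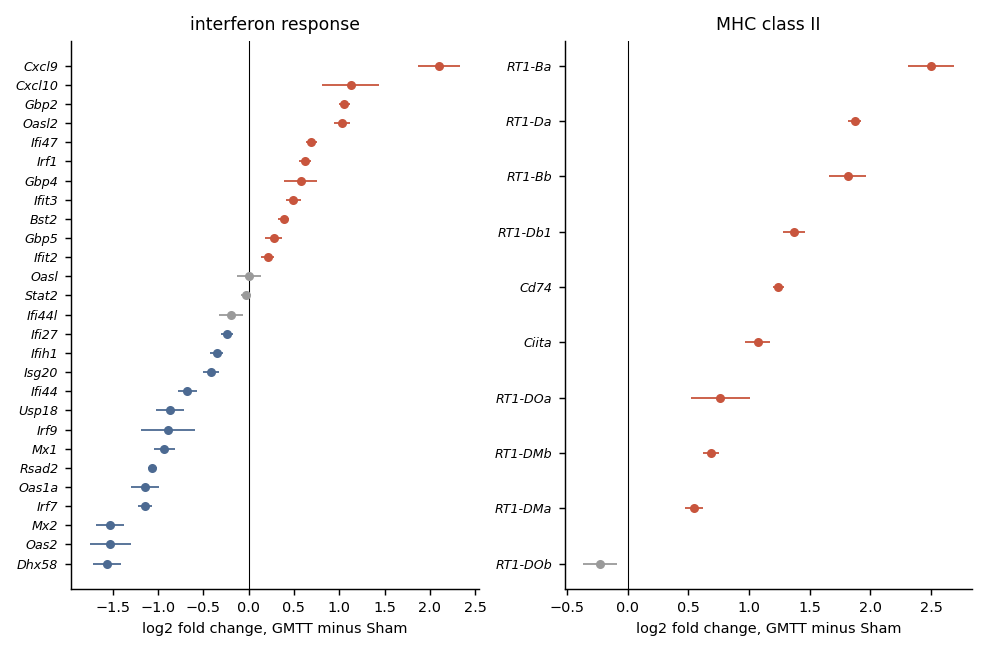
Log2 fold change of GMTT minus Sham with its standard error for the 27 interferon response genes and the 10 MHC class II genes tested. Red was called higher, blue lower, grey not called; the interferon genes run from -1.57 to 2.10 and the class II genes, apart from RT1-DOb, lie above 0.

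Promoters of 4 of these genes are shown, 2 lower and 2 higher in GMTT, to set side by side what they share. They are RefSeq sequences of GRCr8, 250 bases before to 50 after the start, with the match to GAAA, any 2 bases and GAAA again, the core of the interferon-stimulated response element, in capitals (here on the reverse strand). Irf7 is on chromosome 1 (205799974 to 205800273, minus strand), Rsad2 on chromosome 6 (48788071 to 48788370, minus strand), Gbp2 on chromosome 2 (234005477 to 234005776, plus strand) and Oasl2 on chromosome 12 (47383136 to 47383435, minus strand).
Irf7: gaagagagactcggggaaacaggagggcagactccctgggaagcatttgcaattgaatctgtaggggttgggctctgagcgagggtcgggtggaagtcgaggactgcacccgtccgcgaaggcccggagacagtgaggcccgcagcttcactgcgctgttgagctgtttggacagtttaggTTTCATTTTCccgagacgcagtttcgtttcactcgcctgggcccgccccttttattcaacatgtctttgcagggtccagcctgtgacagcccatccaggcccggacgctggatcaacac
Rsad2: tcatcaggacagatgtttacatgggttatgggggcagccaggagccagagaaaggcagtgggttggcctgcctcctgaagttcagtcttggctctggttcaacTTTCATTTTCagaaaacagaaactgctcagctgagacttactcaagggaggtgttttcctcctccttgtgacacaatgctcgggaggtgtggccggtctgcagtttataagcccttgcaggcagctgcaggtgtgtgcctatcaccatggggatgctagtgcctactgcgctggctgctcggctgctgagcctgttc
Gbp2: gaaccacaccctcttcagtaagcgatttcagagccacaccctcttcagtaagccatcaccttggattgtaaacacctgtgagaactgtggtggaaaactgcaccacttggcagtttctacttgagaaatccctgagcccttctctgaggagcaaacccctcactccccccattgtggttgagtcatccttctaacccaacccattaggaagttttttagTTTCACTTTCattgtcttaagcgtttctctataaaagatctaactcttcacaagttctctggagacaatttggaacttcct
Oasl2: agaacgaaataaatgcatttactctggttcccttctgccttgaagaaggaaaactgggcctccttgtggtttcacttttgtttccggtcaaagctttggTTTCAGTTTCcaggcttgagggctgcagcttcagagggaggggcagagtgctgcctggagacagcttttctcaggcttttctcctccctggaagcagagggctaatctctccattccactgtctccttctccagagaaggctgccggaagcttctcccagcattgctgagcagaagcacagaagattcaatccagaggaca
Searched on both strands, this core was found in 3.92% of the 33469 promoters and in 15 of the 22 interferon genes tested that have one in the table. It was held by 7 of the 10 genes called higher and by 7 of the 9 called lower, so genes of either direction held the same letters. None of the matches shown overlapped TGANTCA or CCAAT.

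The NLRP3 and caspase-1 axis named in the series title was measured here against Sham. Nlrp3, the sensor, was at 18.5, 20.5 and 19.4 CPM in Sham and 26.2, 26.7 and 31.3 CPM in GMTT (log2 fold change 0.52, SE 0.08, edgeR adjusted p = 7.1e-07). Casp1, the protease it activates, was at 31.5, 33.6 and 32.6 and 38.2, 35.6 and 41.6 CPM (0.24, edgeR adjusted p = 0.0034), and Pycard, the adaptor between them, at 25.1 to 29.3 and 30.4 to 33.7 CPM (0.25). For Nlrp3, Casp1 and Pycard the groups did not overlap, as for 63.1% of all protein-coding genes tested. Their differences were well under 2-fold, and that for Casp1 did not pass with limma on log2(FPKM + 0.1) (limma adjusted p = 0.061). Il1b, the cytokine that caspase-1 matures, was higher by 0.77 and Il18, its relative, by 0.55, a call that was lost without Sham replicate 1 (0.33, edgeR adjusted p = 0.14) and with limma on log2(FPKM + 0.1) (limma adjusted p = 0.15). Gsdmd, the pore protein of pyroptosis, was at 18.0 to 19.0 and 17.8 to 20.0 CPM and did not pass the test (0.03, edgeR adjusted p = 0.72). Of 17 inflammasome and pyroptosis genes 11 were higher and 2 lower, none by 2-fold up or down, with a median of 0.25. Il1r1, the interleukin-1 receptor, was highest at 1.00, and Aim2, a DNA sensor, was lower by -0.74. Nlrp3, Il1b and Casp1 are carried by monocytes and neutrophils, whose lists had medians of 0.45 and 0.44 in the same libraries. Their part in the axis values was not tested.

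Of 18 inflammatory cytokine and NF-kB genes 8 were higher and none lower. The monocyte-attracting chemokines Ccl7 and Ccl2 were higher by 4.02 and 2.19 and the neutrophil-attracting Cxcl1 by 2.41, all from Sham means under 0.5 CPM. Nos2, the inducible nitric oxide synthase, was at 2.74, 4.33 and 5.79 CPM in Sham, 20.8, 19.7 and 17.7 CPM in GMTT and 2.12 to 3.37 CPM in GPI (log2 fold change 2.17, SE 0.15, edgeR adjusted p = 2.0e-10). Nos2 was thus high in GMTT only, among the 9 libraries. Ptgs2 (cyclooxygenase-2) did not pass the test (0.09). Of 20 genes of other regulated cell death 8 were lower and 3 higher. Aifm2 (FSP1), a suppressor of ferroptosis, was higher by 1.10, Mlkl and Ripk3 of necroptosis by 0.44 and 0.25, and Bcl2l11 (BIM) of apoptosis was lower by -0.52. Aifm2 reached a higher level in GPI than in GMTT, and Mlkl did not. The log2 ratio of the lowest GMTT to the highest other library, on CPM + 0.1, was -2.72 and 0.29.

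The gel carries antioxidant components by its title, and antioxidant genes were mixed. Of 24 NRF2 and antioxidant genes tested 8 were higher and 11 lower, with a median of -0.05. Gclc, the rate-limiting enzyme of glutathione synthesis, was at 201, 190 and 187 CPM in Sham and 78.5, 78.5 and 80.0 CPM in GMTT (log2 fold change -1.29, SE 0.05, edgeR adjusted p = 1.4e-20), and its partner Gclm was lower by -0.84. Hmox1 (heme oxygenase) was at 98.3 to 112 and 65.2 to 73.3 CPM (-0.61), and Prdx2, the red cell peroxiredoxin, was lower by -0.76. Nqo1, another NRF2 target, was higher instead, at 5.48 to 7.40 and 9.84 to 12.3 CPM (0.88). Sod2 and Sod3, the mitochondrial and extracellular superoxide dismutases, were higher by 1.02 and 2.27. For Nqo1, Sod2 and Sod3 the highest GPI library stood above the lowest GMTT library. The log2 ratio of GMTT to GPI between these libraries, on CPM + 0.1, was -0.49, -2.09 and -2.61. Nfe2l2, the gene of NRF2 itself, was higher by 0.15, a call lost without Sham replicate 1, GMTT replicate 1 or GMTT replicate 3 (edgeR adjusted p = 0.072, 0.073 and 0.076). The erythroid list had a median of -0.84 and the contractile muscle list of 3.02 in the same libraries, and the part of either in the antioxidant values was not tested.

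Stress genes were also mixed. Of 21 heat shock and chaperone genes 8 were higher and 7 lower. The small heat shock proteins Hspb1 and Cryab, abundant in muscle, were higher, Hspb1 by 2.10, while Dnajb1 and Hsph1 were lower by -0.89 and -0.59. Of 18 immediate early genes 7 were higher and 3 lower, led by Atf3 (1.93) and Nr4a1 (1.34).

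Several of the lowest genes belong to no list, or, like Gfap, to the nerve list. Fam111a, a protease of DNA replication and antiviral defence, was at 887, 924 and 800 CPM in Sham and 73.8, 78.4 and 92.1 CPM in GMTT (log2 fold change -3.42, SE 0.08, edgeR adjusted p = 2.8e-17). It lies on chromosome 1 (209640953 to 209656547, mRatBN7.2). GPI libraries held 98.6 to 112 CPM, so GMTT and GPI were both low. Lgals5, galectin-5, known from rat reticulocytes, was at 490, 504 and 535 and 93.1, 95.3 and 93.2 CPM (-2.44), and was at 5.04 to 7.13 CPM in GPI. Gfap, a filament protein of glia and non-myelinating Schwann cells, was at 13.2 to 15.6 and 1.45 to 1.67 CPM (-3.20). Lilrb3, Naip6 and Stfa2l3, of families with close copies, were lower by -1.93, -1.65 and -1.60. Selenbp1, Cyb561a3 and Rnase17 were lower by -1.58, -1.55 and -1.53.

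The GMTT mean lay between the Sham and GPI means for 9237 of the 14167 genes (65.2%). All 3 GMTT libraries stood above all 6 others for 1416 genes (10.0%) and below all 6 others for 843 (5.95%). These counts depend on the scaling between libraries, since the GPI libraries have TMM factors of 0.600 to 0.604 against 1.28 to 1.30 in the others: with library sizes only, they became 9147, 2383 and 135, respectively. Both scalings placed 1415 genes above and 134 below all others. Of the 180 genes at least 8-fold higher than Sham, 144 had GMTT between the other groups and 34 had every GMTT library above the other 6, or 138 and 39 with library sizes only.

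Among genes with a proper symbol and a mean log2 CPM of 3 or more, GMTT stood highest above the other groups by TMM scaling in Lyc2, RT1-Da, Nos2, Oas1k, Oscar, Slpi, Vcan and Mcpt10, and it was above both groups in each with library sizes only. Below that mean level, Mmp3 stood further above than any of these. Slpi, an inhibitor of neutrophil elastase, was at 3.77 to 6.30 CPM in Sham, 14.9 to 16.8 CPM in GMTT and 0.423 to 0.924 CPM in GPI. Of the late neutrophil genes 15 of 19 stood above both groups, as did 11 of 14 primary granule genes, 16 of 23 monocyte and macrophage genes, 13 of 22 T and NK cell genes, 9 of 17 inflammasome genes and 7 of 10 class II genes, against 10.0% of all genes. None of the 24 muscle contractile genes and none of the 27 erythroid genes did. Late neutrophil genes took 0.00303% of the counts in GPI and 1.05% in Sham (means of 3), and primary granule genes 0.00206% and 0.634%. Monocyte and macrophage genes took 0.0163% and 0.623%, osteoclast genes 0.0115% and 0.433%, and class II genes 0.00672% and 0.0325%. For lists so low in GPI, standing above both groups mostly restates the difference from Sham, and 10.0% of all genes is an unlike background. Muscle genes were higher still in GPI and erythroid genes were higher in Sham, so neither list could stand above both. Within those symbol and level limits, GMTT was furthest below both groups by TMM scaling in Irf7, Ginm1, Slc22a23, Herc6, Dapk2, Mgst3, Sesn1 and Ybx3. Below a mean log2 CPM of 3, Adamts13 was further below than Irf7. With library sizes only, Irf7, Ginm1, Herc6 and Sesn1 stayed below both groups, and Slc22a23, Dapk2, Mgst3, Ybx3 and Adamts13 did not. Herc6, an interferon-induced ubiquitin ligase gene, was at 12.6 to 13.6 CPM in Sham, 5.62 to 7.15 CPM in GMTT and 41.1 to 43.1 CPM in GPI. Sesn1, a stress-induced brake on growth signalling, was at 49.5 to 51.1, 29.9 to 31.1 and 85.2 to 92.4 CPM.

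**Figure D5:**
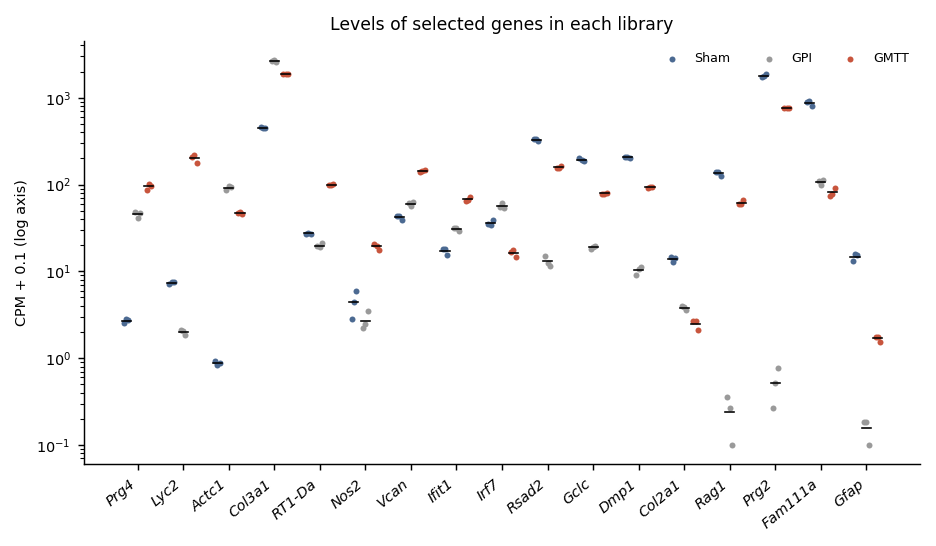
CPM + 0.1 (log axis) of 17 genes in each of the 9 libraries, with bars at the group means. Lyc2, RT1-Da, Nos2, Vcan and Ifit1 are highest in GMTT, Irf7 lowest in GMTT, and Rsad2, Gclc, Dmp1, Rag1, Prg2 and Gfap fall from Sham over GMTT to GPI.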

How the data were processed

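For each gene the authors deposited a read count (whole numbers) and an FPKM value. Libraries were strand-specific (dUTP) and made from poly(A) RNA, per the labels' protocols. Genome build mRatBN7.2 is named in the submitters' processing notes. Aligner, counter and strand setting: not given in the sources used here. Antisense neighbours and families of close copies (RT1, lysozymes, Oas, stefins, Prss29 and Prss34) are therefore uncertain. Columns were matched to samples by name.

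From the counts, edgeR 4.0.16 in R 4.3.3 was run on the 9 libraries together (1 model with a mean per group), with TMM scaling, its default filter (minimum count 10) and a robust 2-sided quasi-likelihood test, adjusted over all genes tested. It was checked on simulated counts. The deposited FPKM were used only in limma 3.58.1, on log2(FPKM + 1) and log2(FPKM + 0.1). Libraries of a group differed beyond sampling noise (chi-square per degree of freedom 1.99 to 5.15), so each library counted as 1 sample. Intervals and floors cover counting error only.

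The members and the 39 gene lists were chosen with earlier results of these data known, and lists are given as counts and medians without a test. Genes named were the 12 highest and 12 lowest fold changes (no overlap of libraries, mean log2 CPM 3 or more), the 6 largest rises and falls in CPM, up to 4 by p and the 2 highest and 2 lowest called per list, 8 above and 8 below both other groups, and 12 genes of the axis, cartilage and antioxidants. A further 68 genes in the text were picked once their values had been seen. As alternatives, DESeq2 1.42.0, scaling by median of ratios or by library sizes alone, other filters, 6 libraries, a replicate block, FPKM with limma, a fit without mitochondrially encoded, muscle and erythroid genes, and each library left out were run. Promoters were taken from RefSeq (GRCr8), 1 row per symbol, and figures drawn with matplotlib 3.10.9. Some genes of the lists are not reported here.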

Additional observations from a re-analysis of the deposited data

How the results depend on the processing

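Counts of protein-coding genes called stayed within 1.5 times of the main values, except in 2 alternatives. With at least 5 CPM required in 3 libraries, 140 instead of 283 genes were lower by at least 2-fold, since fewer genes were tested. On limma with log2(FPKM + 1), 638 instead of 1457 genes reached 2-fold, 550 of them higher and 88 lower; the pseudocount shrinks low genes by its construction, and Mmp3 was then at 4.64. Leaving out 1 library gave 7577 to 8420 called genes. With library sizes only, 2383 genes instead of 1416 were above and 135 instead of 843 below all other libraries. The replicate numbers did not pair the samples (deviations of same-numbered Sham and GMTT libraries correlated at -0.146 to -0.0239), and a fit with the replicate number as a block called 8027 genes. Over 19 alternatives, the genes named gave 4122 values, of which 4088 kept direction and side of the threshold, 31 lost and 3 gained the call, and none reversed. Precision is limited by 3 libraries per group and, for the genes near 0 counts, by counting error.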

Other observations

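Lists of other marrow cells, not described above, moved little. Of 14 megakaryocyte and platelet genes 6 were lower and 3 higher in GMTT, with a median log2 fold change of -0.05, and Treml1, a platelet receptor, was lowest at -0.55. Of 15 regulators of stem and progenitor cells 5 were higher and 3 lower, with a median of 0.15. Hlf and Mecom, transcription factors of stem cells, were higher by 1.33 and 0.85, and both were also expressed in GPI at 26.7 to 27.9 and 16.6 to 19.0 CPM. Of 16 genes of the marrow stroma 8 were higher and 2 lower. Ptn (pleiotrophin) was at 26.5 to 30.5 CPM in Sham and 62.9 to 69.7 CPM in GMTT, while Cxcl12, the chemokine that holds stem cells in marrow, was lower by -0.27.

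Mmp3, described above, and 27 other genes were close to absent in one group, by a rule chosen after the values were seen: at most 3 counts over the 3 libraries of one group and at least 10 in each library of the other. In 19 the counts were in GMTT and in 9 in Sham. Ctrb1, a pancreatic chymotrypsinogen, had 64, 63 and 72 counts in Sham and none in GMTT, which is at least 70.1-fold lower against a floor of 3 counts over the group. RT1-N2, a class I gene of chromosome 20, had 154, 190 and 161 counts in Sham and 1, 0 and 0 in GMTT, with 31 to 40 in GPI. Stfa2l1, a stefin of neutrophils from a family of close copies, had 42 to 47 counts in Sham, 0 to 1 in GMTT and none in GPI.

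On the other side, Oxtr (the oxytocin receptor), Gbx2 and Nrxn3 had no count in Sham and 11 to 18, 13 to 14 and 12 to 14 counts in GMTT libraries, at least 13.9-fold, 12.6-fold and 12.3-fold higher against the same floor. Xcr1, a chemokine receptor of the dendritic cells that present to CD8 T cells, had 1, 1 and 0 counts in Sham, 33, 24 and 19 in GMTT and 1 to 3 in GPI. Of the 19 genes 4 lie on chromosome 6, among them 3 models without a symbol, with 96 to 128 counts over the GMTT libraries, none in GPI and at most 3 in Sham.

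Usp9y, a ubiquitin protease gene of the Y chromosome, had no count in any of the 6 Sham and GPI libraries and 30, 22 and 27 counts in GMTT. The Y genes Ddx3, Eif2s3y, Kdm5d and Uty were counted in all 9 libraries, with at least 161 counts in each, as the labels give male rats. Kdm5d had 1046 to 1064 counts in GMTT and 1216 to 1325 in Sham. The labels name no strain.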
